A study of Mus musculus with 8 samples.

Results

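The erythroid program beyond the globin chains was followed in RNA of splenic CD11c-positive cells through 9 genes: Gata1 and Klf1, which encode transcription factors, Epor and Tfrc, which encode receptors, Alas2 of heme synthesis, the red cell membrane and skeleton genes Slc4a1 and Sptb, Ahsp, which encodes a chaperone of alpha globin, and Hemgn, which encodes a nuclear protein of erythroid cells. Members were taken by gene symbol. Of the 9 genes, 7 had a row among the 13786 protein-coding genes of the count table, and Gata1 and Ahsp were not analysed here. The cells came from the spleens of female mice aged 7 weeks, 4 of the C57BL/6 strain and 4 of the lupus-prone B6.SLE123 strain, and each mouse gave 1 library. B6.SLE123 mice are congenic: they carry the lupus susceptibility intervals Sle1, Sle2 and Sle3 on a C57BL/6 background. No animal in this comparison received a treatment. The comparison asks which transcripts differ between CD11c-positive splenocytes of the strains at this age. The paper treats these cells as dendritic cells. The strain was taken from the sample titles, because the number in the genotype field of the labels rises by 1 from mouse to mouse.

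Red cell precursors mature in the bone marrow and, in mice, also in the red pulp of the spleen. Erythropoietin binds its receptor Epor on early precursors. The transferrin receptor Tfrc takes up iron for heme, and GATA1 and KLF1 switch on the genes of heme synthesis, the globins and the red cell membrane. CD11c marks dendritic cells and is also carried by some macrophages and B cells, whereas red cells and their precursors are not known to carry it. Macrophages of the red pulp take up old red cells, recycle their iron and surround maturing erythroblasts.

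Libraries held between 25563070 and 37367094 counts per mouse, and levels are given as counts per 1000000 counts of a library after TMM normalization (CPM). Log2 fold changes were fitted by edgeR and are below 0 where B6.SLE123 mice had less of a transcript. Adjusted p values come from edgeR's quasi-likelihood test over all genes, and a gene was called when its adjusted p was below 0.05. Of all genes, 53.4% were called, 26.6% as lower and 26.7% as higher in B6.SLE123 mice, so a call alone did not set a gene apart. The label of dendritic cells was checked on 12 markers, all of which had a row, and 7 were called higher and 3 lower. Itgax, which encodes CD11c, stood at 1329 ± 77.9 CPM in C57BL/6 and 1543 ± 93.4 in B6.SLE123 mice (SD, n = 4). The list summed to between 9018 and 9926 CPM in C57BL/6 and between 9918 and 10407 CPM in B6.SLE123 mice. The summed level of 15 markers of red pulp macrophages and the erythroblastic island lay between 10332.5 and 13314 CPM in C57BL/6 and between 1638 and 3083 CPM in B6.SLE123 mice. In C57BL/6 mice this exceeded the sum of the dendritic list. Such sums depend on which genes are listed and do not give the shares of the cell types. With these markers abundant, a preparation of dendritic cells alone is not shown. None of these 15 markers had a count of 0 in any mouse, and 14 of them were called lower, the median of the list being -2.37 (log2 fold change) against -0.0019 over all genes. In RNA of a bulk preparation, fewer cells of a type and less RNA per cell cannot be told apart. The labels number the mice and give no litter or sorting day, so the p values measure the spread between these 8 libraries.

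Of the 7 members in the table, 3 were called lower in B6.SLE123 mice (Epor, Alas2 and Slc4a1), 2 were called higher (Tfrc and Sptb) and 2 were not called (Klf1 and Hemgn). The 4 mice of one strain all lay below those of the other for 2 members, Epor and Alas2, against 24.5% of all genes that were lower without overlap. They all lay above for 1 member, Tfrc, against 24.4% of all genes. Counts this small do not set the members apart from the table, and the members did not move in 1 direction. At least 10 counts were present in every mouse for 4 of the 7 members, and 5 of the 7 had a mean under 10 CPM. Every gene in the table had a median of at least 5 counts in 1 of the strains. Klf1 met this minimum in C57BL/6 mice only, with medians of 7.5 and 2.5 counts. With so low a median in B6.SLE123 mice, it could be in the table only through a higher median in C57BL/6 mice.

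**Figure D1:**
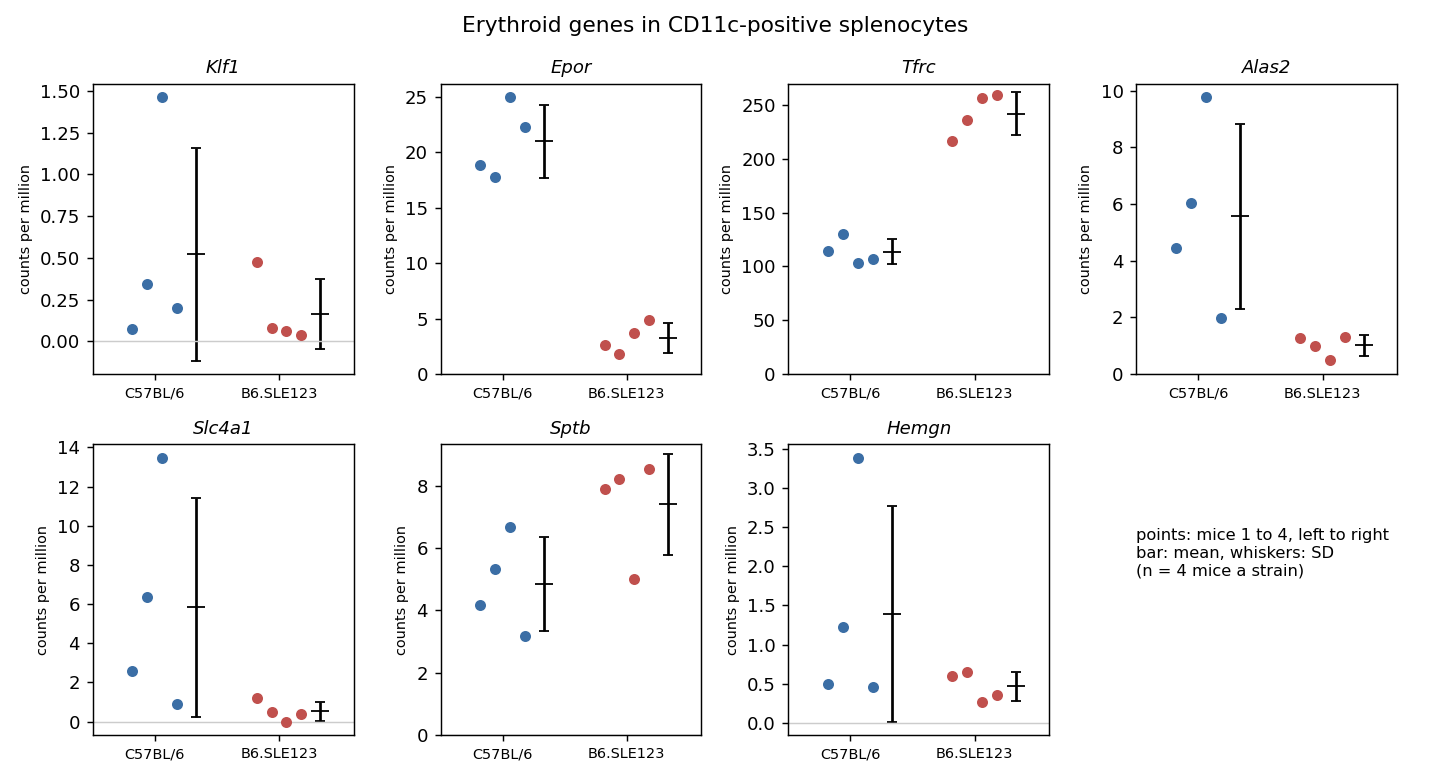
CPM of the 7 erythroid genes (y axes, each gene on its own scale) in each C57BL/6 (blue) and B6.SLE123 (red) mouse, with the mean and SD of 4 mice beside the points. Epor and Alas2 lay lower in every B6.SLE123 mouse and Tfrc higher, whereas the strains overlapped for Klf1, Slc4a1, Sptb and Hemgn.

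Per kilobase of exon, Tfrc was the most abundant member in C57BL/6 mice, with a mean of 18.4 CPM per kb (16.7 to 21.0 over the 4 mice), followed by Epor with 10.6 (8.95 to 12.6). Both stood apart from each other and from the members below them. Alas2 followed with 2.32 (0.826 to 4.07), Slc4a1 with 1.19 (0.189 to 2.76), Hemgn with 0.554 (0.185 to 1.35), Sptb with 0.398 (0.262 to 0.550) and Klf1 with 0.340 (0.0495 to 0.957), and each of these 5 overlapped its neighbours. In B6.SLE123 mice Tfrc stood at 39.1 CPM per kb (34.9 to 41.9) and Epor at 1.64 (0.905 to 2.47). Sptb followed with 0.610 (0.412 to 0.703), above Alas2 with 0.423 (0.209 to 0.541), and these ranges overlapped. Hemgn with 0.186 (0.106 to 0.257), Klf1 with 0.107 (0.0257 to 0.310) and Slc4a1 with 0.106 (0 to 0.246) came last and overlapped each other.

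Klf1, at chromosome 8 positions 84901928 to 84905291 of mm10, encodes the erythroid Krüppel-like factor, which activates beta globin and many late erythroid genes. Its counts were 2, 9, 48 and 6 in C57BL/6 mice 1 to 4 and 15, 3, 2 and 1 in B6.SLE123 mice 1 to 4. A single library, that of C57BL/6 mouse 3, held most of the reads of its strain, and the highest B6.SLE123 mouse exceeded 3 of the 4 C57BL/6 mice. The log2 fold change was -1.70 ± 0.91 (SE) and was not called (edgeR adjusted p = 0.137). Without C57BL/6 mouse 3 it was -0.32 (adjusted p = 0.776), and without B6.SLE123 mouse 1 it was -3.05 and passed the threshold (adjusted p = 0.0384). The call of Klf1 thus depended on single mice.

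Among erythroid transcription factors outside the members, 16 genes were in the table. Of these, 5 were called lower, 4 higher and 7 were not called, beside 26.6% lower and 26.7% higher over all genes. Their median log2 fold change was -0.05. The 3 with the highest mean CPM were Cbfa2t3, a corepressor (log2 fold change 0.22, adjusted p = 0.000862), Zbtb7a, a repressor of fetal globin (0.01, adjusted p = 0.851), and Bcl11a, which also silences fetal globin and is needed by plasmacytoid dendritic cells (0.17, adjusted p = 0.0254). Tal1 and Gfi1b, named here after their values were seen because they are the partners of GATA1 called lower under 1 CPM, had means of 0.611 and 0.254 CPM in C57BL/6 mice and 0.160 and 0.0900 CPM in B6.SLE123 mice. Their calls (adjusted p = 0.0388 and 0.0413) held in only 3 and 1 of 8 leave-one-out fits. Gfi1b, like Sox6, was above the table's minimum in C57BL/6 mice only.

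DNA motifs of these factors were looked for in RefSeq promoter windows (GRCm38.p6, 250 bases before to 50 after the start of a transcript), which were given for 7 of the 9 members, Gata1 among them and Slc4a1 and Ahsp not. The hexamers AGATAA or AGATAG and TGATAA or TGATAG, the forms that GATA factors bind, were searched on both strands. They were found in the windows of Alas2, Epor, Hemgn, Klf1 and Sptb, that is in 5 of 7 members, against 33.0% of 27025 genes with a window. The stretches that hold a hexamer upstream of the start are shown 5′ to 3′ on the gene's strand, with the hexamer or its reverse complement in capitals, because these members share the motif.
Klf1, chr8:84901890-84901919: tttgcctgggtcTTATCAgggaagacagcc
Epor, chr9:21963613-21963642: ggtggctgtagcTTATCTgtccccagcctg
Alas2, chrX:150547319-150547348: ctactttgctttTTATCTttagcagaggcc
Hemgn, chr4:46404184-46404208: acctgtgcagtgTGATAAagaaagt
The hexamer began 80 bases before the start in Klf1, 54 in Epor, 86 in Alas2 and 13 in Hemgn, where the stretch ends at the start itself. In Sptb it lay after the start, 13 bases into the transcript. Of the 4 genes shown, Epor and Alas2 were called lower, and Klf1 and Hemgn were not called. The forms of the KLF motif, CCACACCC or CCGCACCC and CCACGCCC or CCGCGCCC, were found in the window of Tfrc only among the members, against 15.6% of genes. A match describes the letters of the window and does not show binding.

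Epor, on chromosome 9 at 21958897 to 21963506, encodes the erythropoietin receptor and had the smallest standard error of the members that were lower. Its level was 18.9, 17.8, 25.0 and 22.3 CPM in C57BL/6 mice 1 to 4 and 2.63, 1.80, 3.70 and 4.92 CPM in B6.SLE123 mice 1 to 4. The lowest C57BL/6 mouse was well above the highest B6.SLE123 mouse. Epor was thus 6.60-fold lower in B6.SLE123 mice, with a log2 fold change of -2.72 ± 0.23 (SE, edgeR adjusted p = 3.95e-06). The call held in all 14 alternative fits, with log2 fold changes between -2.98 and -2.52.

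Among C57BL/6 mice the highest Epor level was 1.41 times the lowest, a ratio that 16.2% of 12791 genes with at least 10 mean counts equalled or exceeded. The corresponding values of Alas2 and Slc4a1 were 4.93 and 14.5 times. The genes most like Epor over the 8 mice, by root mean square difference of centred log2 CPM among 11747 genes with at least 1 CPM, were Cela1 (0.0958), an elastase, Slc16a9 (0.103), a carrier of monocarboxylates, and Slco2b1 (0.104), an organic anion transporter. Their log2 fold changes were -2.80, -2.58 and -2.77. The strain difference is part of this measure, here and for the other members, so near genes share it by selection. No globin or red cell membrane gene was among the 3 nearest. The summed globin level ran from 60.1 to 232.6 CPM among C57BL/6 mice, so globins could hardly lie near a gene as even as Epor. Their absence therefore does not bear on which cells gave the Epor reads. The macrophage markers described above were also lower, and those of highest mean CPM, Vcam1, Csf1r and Axl, had log2 fold changes of -2.45, -2.18 and -2.37. Relative to the mean log2 CPM of those 15 markers, a ratio added after the data were seen, the log2 ratio of Epor fell by 0.55 between the strains (p = 0.0286 by the exact two-sided permutation test over mice, the least that 4 against 4 can give). With a mouse left out this difference lay between -0.65 and -0.46. The part of these cells in the level of Epor was not tested.

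Of 12 genes listed for erythropoietin receptor signalling, 11 were in the table, and 6 were called higher, 2 lower and 3 were not called, with a median log2 fold change of 0.24. Of these, 10 had a mean of at least 10 CPM, a level at which 33% of all genes that met the table's minimum in both strains were higher and 26.2% lower. Jak2, the kinase bound to the receptor, rose from 500.1 ± 24.8 CPM to 741.5 ± 38.8 CPM (SD, n = 4, log2 fold change 0.57, adjusted p = 6.40e-06). Kit, a separate receptor, for stem cell factor, that early precursors carry, rose by 0.49 on the log2 scale (adjusted p = 2.82e-05), and Lyn, a Src family kinase, fell by 0.32 (adjusted p = 0.00076). These genes serve many cytokine receptors of leukocytes and are not particular to red cell precursors.

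Tfrc, on chromosome 16 at 32608920 to 32632794, encodes transferrin receptor 1. Its level was 114.3, 129.8, 103.4 and 106.6 CPM in C57BL/6 mice 1 to 4 and 216.1, 236.0, 255.9 and 259.0 CPM in B6.SLE123 mice 1 to 4. Every B6.SLE123 mouse lay above every C57BL/6 mouse, and the mice of a strain differed little among themselves. Tfrc was 2.13-fold higher in B6.SLE123 mice (log2 fold change 1.09 ± 0.08, edgeR adjusted p = 1.40e-06), and the call held in all 14 alternative fits. It was the only member to rise by more than 2-fold.

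Tfrc is needed by every dividing cell, and proliferation genes rose in these mice. All 18 genes of a proliferation list were called higher without overlap, at a median of 0.98 on the log2 scale, and their summed level went from between 989.1 and 1093 CPM to between 1792 and 2319 CPM. Mki67, a marker of cycling cells, rose by 1.28 on the log2 scale (adjusted p = 6.78e-07). Measured against the mean log2 CPM of that list, Tfrc was 1.51 ± 0.11 in C57BL/6 and 1.65 ± 0.27 in B6.SLE123 mice (log2 difference, SD, n = 4). The difference of 0.14 did not pass an exact two-sided permutation test (p = 0.4). The genes whose profile was nearest to Tfrc were Cers6, a ceramide synthase (root mean square difference 0.0825), Pik3r6, a regulatory subunit of PI3 kinase gamma (0.0868), and Spsb1, a subunit of a ubiquitin ligase (0.0954). None of these belongs to the erythroid lists. The part of cycling cells in the level of Tfrc was not tested.

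Stability of Tfrc mRNA and translation of Alas2 mRNA are both set by iron through hairpins in the untranslated regions, which the iron regulatory proteins bind. Sequences that can form such a hairpin, with an unpaired C, 5 paired bases above it and the loop CAGTGN, in which the last base was not G, were searched in GENCODE M21 transcripts (GRCm38). In the 5′ untranslated region, 0.11% of 20916 genes held such a sequence, and in the 3′ untranslated region 0.461% of 21707 genes. The matches are shown because Alas2 and Tfrc are the members with such a hairpin in the region known for it, with the loop in capitals.
Alas2, 5′ untranslated region, chrX:150547461-150547483: gttcgtcctCAGTGCagggcaac
Tfrc, 3′ untranslated region, chr16:32631222-32631244: tatcggaagCAGTGCcttccata
Tfrc, 3′ untranslated region, chr16:32631601-32631623: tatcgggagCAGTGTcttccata
Tfrc, 3′ untranslated region, chr16:32631666-32631688: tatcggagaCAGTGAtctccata
Tfrc, 3′ untranslated region, chr16:32631713-32631735: tatcgggaaCAGTGTttcccata
Tfrc rose and Alas2 fell. Counts of mRNA do not measure translation, so the level of Alas2 does not show the action of its hairpin. Of 8 other transcripts regulated by iron, 6 were called lower and 2 were not called, and the median log2 fold change was -0.51. From 10 CPM upwards, 6 of 7 were lower and 0 higher. Among all genes of that level that met the table's minimum in both strains, 26.2% were lower and 33% higher. Slc40a1, the iron exporter ferroportin, fell by 2.68 on the log2 scale (adjusted p = 4.56e-06). Hmox1, the heme oxygenase that frees iron from heme, fell by 2.49 (adjusted p = 1.23e-06), and Fth1, the ferritin heavy chain, by 0.67 (adjusted p = 6.39e-06). Fth1 has many processed copies in the genome, so its counts are uncertain. All 3 are abundant in red pulp macrophages, whose markers fell in the same mice, and the part of these cells in the differences was not tested.

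Alas2, at positions 150547375 to 150570638 of the X chromosome, encodes the erythroid form of 5-aminolevulinate synthase, which catalyses the first and rate-limiting step of heme synthesis in red cell precursors. Its level was 4.46, 6.03, 9.79 and 1.99 CPM in C57BL/6 mice 1 to 4 and 1.27, 0.994, 0.503 and 1.30 CPM in B6.SLE123 mice 1 to 4. The strains did not overlap, although C57BL/6 mouse 4 came close to the B6.SLE123 mice. Alas2 was 5.56-fold lower in B6.SLE123 mice (log2 fold change -2.48 ± 0.45, edgeR adjusted p = 0.000854). The call held in all 14 alternative fits, and without C57BL/6 mouse 3, the highest, the log2 fold change was -2.04. Alas2 shares 311 of its 2403 exon bases with Apex2 on the opposite strand, and the sources used here do not state whether counting used the strand.

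Alas1, which encodes the form of the same enzyme in all other tissues, was not called. It stood at 44.8 ± 2.41 CPM in C57BL/6 and 46.4 ± 2.72 CPM in B6.SLE123 mice (SD, n = 4, log2 fold change 0.05, adjusted p = 0.469). The log2 ratio of Alas2 to Alas1, added after the data were seen, fell by 2.36 (exact two-sided permutation test, p = 0.0286). Alas1 hardly changed and Alas2 was already known not to overlap, so this ratio largely repeats the difference of Alas2.

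**Figure D2:**
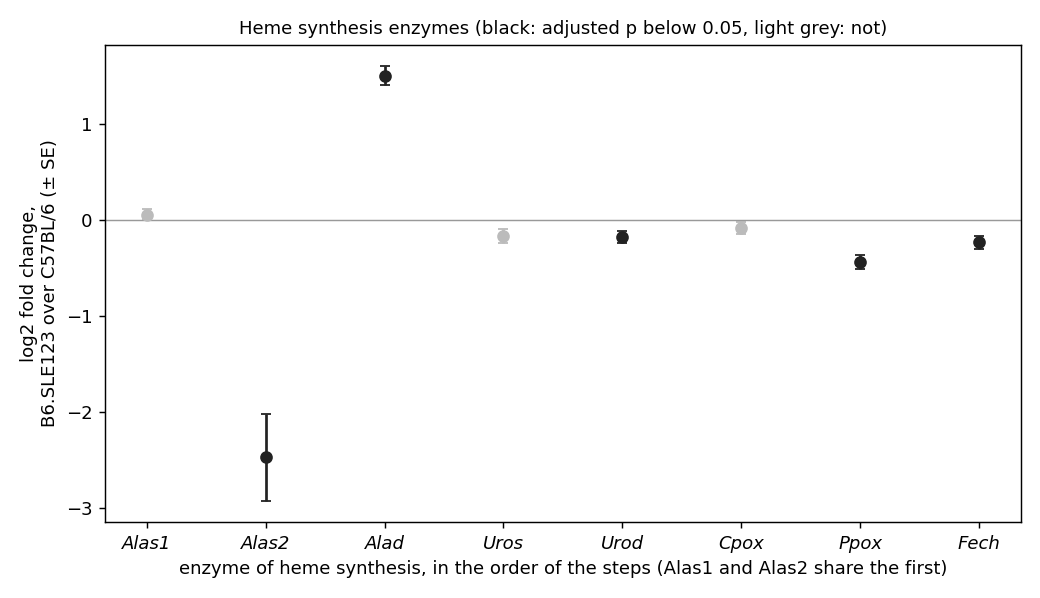
Log2 fold change of the heme synthesis enzymes named in the text (y axis, B6.SLE123 over C57BL/6, whiskers are the SE, n = 4 mice a strain) in the order of the steps (x axis). Alas2 was 2.48 lower and Alad 1.50 higher, and the others lay between -0.44 and 0.05.

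The 8 other enzymes of heme synthesis were all in the table at over 10 CPM, and 3 were called lower, 1 higher and 4 were not called, with a median log2 fold change of -0.16. Among all genes of that level that met the table's minimum in both strains, 26.2% were lower and 33% higher. Alad, which joins aminolevulinate into porphobilinogen and is the second enzyme of the pathway, rose from 12.2 ± 1.72 CPM to 34.6 ± 3.03 CPM (SD, n = 4, log2 fold change 1.50 ± 0.10, adjusted p = 8.48e-07), without overlap. It was opposite in direction to Alas2, and its call held in all 14 alternative fits. Ppox, protoporphyrinogen oxidase, fell by 0.44 (adjusted p = 0.000283), Fech, ferrochelatase, which inserts the iron, by 0.24 (adjusted p = 0.0104), and Urod, uroporphyrinogen decarboxylase, by 0.18 (adjusted p = 0.031). Uros and Cpox, enzymes of intermediate steps, had log2 fold changes of -0.17 and -0.09 and were not called. No other enzyme of the pathway fell by more than Ppox. Alad and Hemgn lie on chromosome 4, which carries the Sle2 interval of the congenic strain. The bounds of the Sle1, Sle2 and Sle3 intervals were not used here. Whether any enzyme of the pathway, Ppox included, lies within one was not examined.

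Transport of heme and iron was covered by 11 genes in the table, of which 4 were called lower, 2 higher and 5 were not called. Over all genes, 26.6% were called lower and 26.7% higher. The median log2 fold change of the 11 genes was -0.12. The highest mean CPM was that of Tmem14c, a mitochondrial porphyrin transporter (log2 fold change -0.47, adjusted p = 0.000177), followed by Slc25a37, the mitochondrial iron importer mitoferrin (-0.13, adjusted p = 0.0857), and Flvcr1, a heme exporter (0.08, adjusted p = 0.296).

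Slc4a1, on chromosome 11 at 102348824 to 102366203, encodes band 3, the anion exchanger of the red cell membrane. Its level was 2.57, 6.37, 13.5 and 0.927 CPM in C57BL/6 mice 1 to 4 and 1.20, 0.484, 0 and 0.394 CPM in B6.SLE123 mice 1 to 4. The strains overlapped, since C57BL/6 mouse 4 lay below B6.SLE123 mouse 1. The count of 0 in B6.SLE123 mouse 3 allows up to 3 counts, or 0.0888 CPM, for counting error only. Slc4a1 was 11.3-fold lower in B6.SLE123 mice (log2 fold change -3.50 ± 0.85, edgeR adjusted p = 0.00531). The call held in all 14 alternative fits, with a log2 fold change of -2.65 without C57BL/6 mouse 3 and an adjusted p of 0.0486 by limma-voom.

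Sptb, on chromosome 12 at 76580488 to 76710547, encodes beta spectrin, a chain of the red cell skeleton, and moved in the opposite direction. Its level was 4.16, 5.34, 6.68 and 3.18 CPM in C57BL/6 mice 1 to 4 and 7.88, 8.20, 5.001 and 8.54 CPM in B6.SLE123 mice 1 to 4. In B6.SLE123 mice 1, 2 and 4 it exceeded every C57BL/6 mouse, and mouse 3 lay within their range. Sptb was 1.52-fold higher (log2 fold change 0.61 ± 0.23, edgeR adjusted p = 0.0419). The call was lost in 6 of 8 leave-one-out fits, with adjusted p values up to 0.114, and was kept without C57BL/6 mouse 3 and without B6.SLE123 mouse 3, while the direction held in all of them.

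The genes nearest to Sptb in profile were Slc52a3, a riboflavin transporter (root mean square difference 0.175), Lrig1, a membrane regulator of growth factor receptors (0.215), and Cd177, a neutrophil surface protein (0.215), and none was an erythroid gene of the lists. The gene overlaps Plekhg3 by 1 exon base on the opposite strand.

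Of the 19 other genes listed for the red cell membrane and skeleton, 17 were in the table, and 12 were called lower, 1 higher and 4 were not called. With the 5 genes left out that met the table's minimum in C57BL/6 mice only (Add2, Epb42, Kel, Rhag and Tmod1), 7 of 12 were lower and 1 higher, and their median log2 fold change was -1.03. In a split at 10 CPM, added after the data were seen and limited to genes that met the minimum in both strains, 6 of 9 under 10 CPM were called lower and 0 higher, where among all 4040 such genes 26.5% were lower and 14.9% higher. From 10 CPM upwards, 1 of 3 was lower and 1 higher. The genes of the list with the highest mean CPM are also used by leukocytes. These were Epb41, protein 4.1 (log2 fold change -0.14, adjusted p = 0.0466), Slc14a1, a urea transporter (-0.14, adjusted p = 0.387), and Gypc, glycophorin C (0.35, adjusted p = 0.00295).

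Hemgn, on chromosome 4 at 46393989 to 46413506, encodes hemogen, a nuclear protein of erythroid precursors that is a target of GATA1. Its counts were 13, 32, 111 and 14 in C57BL/6 mice 1 to 4 and 19, 24, 9 and 9 in B6.SLE123 mice 1 to 4. Only C57BL/6 mice 2 and 3 lay above all B6.SLE123 mice. The log2 fold change of -1.58 ± 0.62 was not called (edgeR adjusted p = 0.0517), and without C57BL/6 mouse 3 it was -0.61 (adjusted p = 0.287). DESeq2 placed it past the threshold (adjusted p = 0.0179), as did the fits without C57BL/6 mouse 1 or mouse 4. The genes nearest to Hemgn were Ermap, an erythroblast membrane protein (root mean square difference 0.346), Slc43a1, an amino acid transporter (0.614), and Efr3b, a membrane anchor of a lipid kinase (0.658). Ermap was also the gene nearest to Klf1 (0.724), followed by Hp (0.796), which encodes haptoglobin, and Aqp1 (0.835), the water channel of the red cell.

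Late red cell enzymes and maturation factors were represented by 17 genes. Of these, 5 were called lower and 3 higher, beside 26.6% and 26.7% of all genes, and 9 were not called. The 3 with the highest mean CPM were Mkrn1, a ubiquitin ligase (log2 fold change 0.16, adjusted p = 0.0867), Bnip3l, which clears mitochondria from reticulocytes (-0.13, adjusted p = 0.0352), and Tspan33, a tetraspanin of erythroid and activated B cells (0.79, adjusted p = 1.04e-06). Over the 5 lists of erythroid genes outside the members, 69 of 75 genes were in the table, with 29 called lower, 11 higher and 29 not called and a median log2 fold change of -0.19. Of these, 10 met the table's minimum in C57BL/6 mice only, and without them 21 of 59 were lower and 11 higher. Among these 59, the same split gave 9 of 17 lower and 1 higher under 10 CPM, and 12 of 42 lower and 10 higher from 10 CPM upwards. These counts stand beside the 26.5% and 14.9%, and the 26.2% and 33%, of all genes of those levels. The count of 29 rested in part on C57BL/6 mouse 3 and B6.SLE123 mouse 3, without which 16 and 18 genes were lower.

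**Figure D3:**
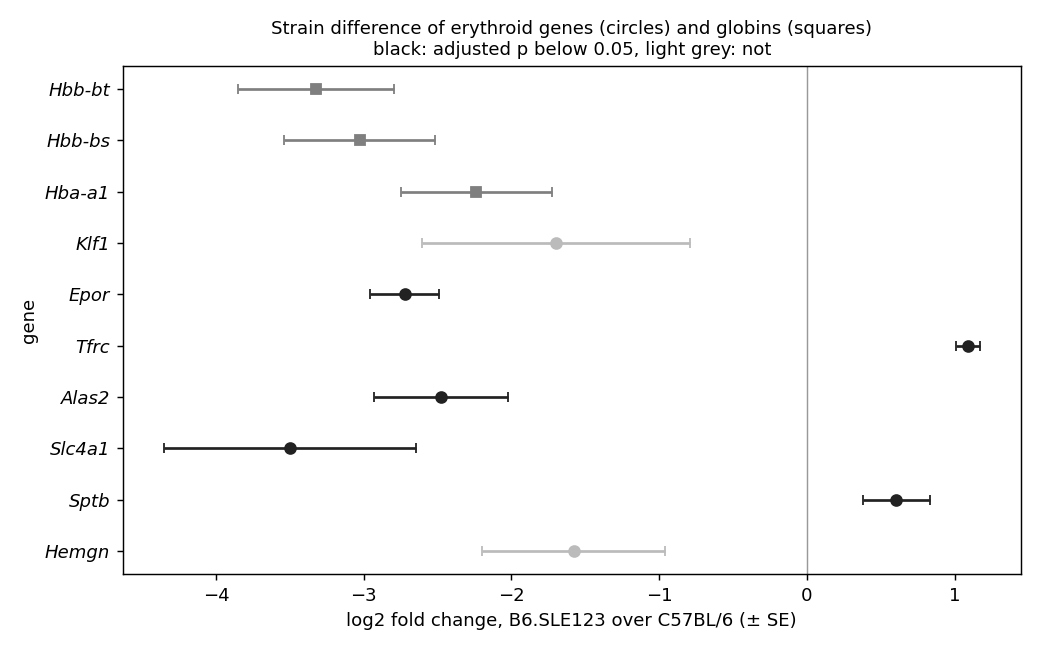
Log2 fold change (x axis, B6.SLE123 over C57BL/6, whiskers are the SE, n = 4 mice a strain) of the 7 erythroid genes (circles) beside 3 globin genes (squares). The globins and 3 of the members were called lower, Tfrc and Sptb lay above 0, and Klf1 and Hemgn (light grey) were not called.

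The members differed in how far single mice set their level. Among C57BL/6 mice the highest CPM was 19.3 times the lowest for Klf1, 14.5 times for Slc4a1, 7.31 times for Hemgn and 4.93 times for Alas2, where the median gene of the table reached 1.15 times. A spread as large was found in 0.0704%, 0.149%, 0.274% and 0.453% of 12791 genes, respectively. Sptb reached 2.10 times, which 3.94% of genes did, and Tfrc 1.26 times, which 28.6% did.

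Among C57BL/6 mice, Alas2, Slc4a1, Hemgn and Sptb had the order mouse 3, 2, 1 and 4 from highest to lowest, which was also the order of the globin genes Hba-a1, Hba-a2, Hbb-bs and Hbb-bt. Klf1 was likewise highest in mouse 3 and next in mouse 2. Epor was highest in mouse 3 but next in mouse 4, and Tfrc was lowest in mouse 3. In B6.SLE123 mice, mouse 3 was lowest for Alas2, Slc4a1, Hemgn, Sptb, Hba-a1, Hbb-bs and Hbb-bt, but Klf1 was lowest in mouse 4, Epor in mouse 2 and Tfrc in mouse 1. The highest B6.SLE123 mouse also varied, and was mouse 4 for Alas2, Epor, Tfrc and Sptb, mouse 1 for Slc4a1 and Klf1 and mouse 2 for Hemgn. These genes were measured in the same libraries, so the shared order among C57BL/6 mice describes the libraries.

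**Figure D4:**
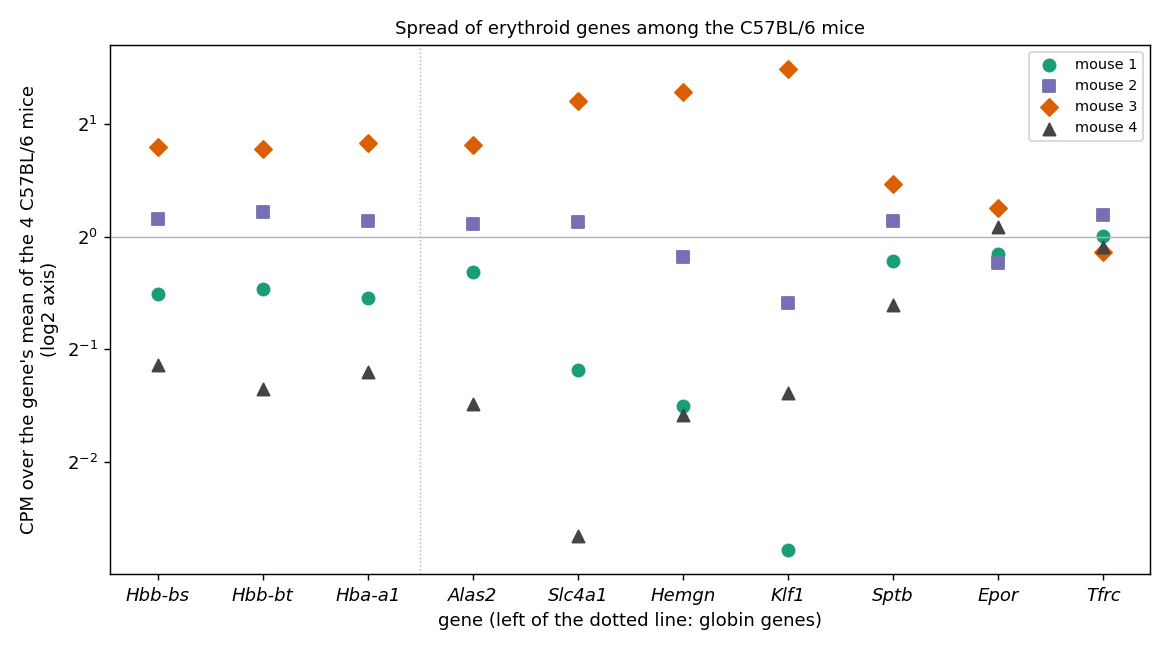
CPM of each gene in C57BL/6 mice 1 to 4 relative to its mean over the 4 mice (y axis, log2 scale) for 3 globin genes and the 7 erythroid genes (x axis). Mouse 3 was highest for the globins, Alas2, Slc4a1, Hemgn, Klf1, Sptb and Epor, and lowest for Tfrc, whose 4 mice lay within 1.26 times of each other.

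Globin transcripts were lower in all B6.SLE123 mice and served as the reference for the members. Hbb-bs fell by 3.03 and Hbb-bt by 3.32 on the log2 scale (adjusted p = 0.000503 and 0.000336), Hba-a1 fell by 2.24 (adjusted p = 0.0037), and Hba-a2 had a count of 0 in every B6.SLE123 mouse. Hba-a1 and Hba-a2, like Hbb-bs and Hbb-bt, are near-identical copies whose reads counting can split in either way, so the beta genes were summed as the reference. Hbb-bs and Hbb-bt fell by more than Hba-a1, so the choice of reference shifts the ratio of every member. The part of the congenic intervals in the fall of the reference was not tested. The profile of Alas2 was nearest to Hba-a1 (root mean square difference 0.416), followed by Btbd11 (0.535) and Aqp1 (0.543). Slc4a1 was nearest to Hbb-bt (0.616), Hbb-bs (0.777) and Hba-a1 (0.911).

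The log2 ratio of each member to the summed counts of Hbb-bs and Hbb-bt was compared between the strains for 7 members. The ratio of Tfrc was higher by 4.29 in B6.SLE123 mice and that of Sptb by 3.83, both without overlap (p = 0.0286 each by the exact permutation test). Tfrc lay above and the beta globin genes below in every B6.SLE123 mouse, so the outcome for Tfrc was fixed beforehand. Sptb itself was only 0.61 higher on the log2 scale, so most of the difference in its ratio came from the fall of the reference. The ratio of Alas2 was -3.60, -3.84, -3.76 and -4.09 in C57BL/6 mice 1 to 4 and -3.22, -2.93, -1.99 and -3.60 in B6.SLE123 mice 1 to 4. It was higher by 0.89 (exact permutation p = 0.0286), with the nearest mice of the strains almost equal, and against all globin genes the difference of 0.67 no longer passed (exact permutation p = 0.0857).

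The ratio of Slc4a1 differed by -0.75 (exact permutation p = 0.486), by -0.014 without B6.SLE123 mouse 3, which had 0 counts, and by -0.20 with 2 counts added. The ratio of Epor differed by 0.43 (p = 0.629, exact), that of Klf1 by 1.76 (p = 0.171, exact) and that of Hemgn by 2.05 (p = 0.0571, exact). Of these, Hemgn passed with 2 counts added in place of 0.5 (p = 0.0286, exact). The 7 comparisons were not adjusted for their number, and Benjamini-Hochberg values over the member list were not formed because the members were chosen with results known. Within a strain the ratio of Alas2 varied least among the members in C57BL/6 mice, with an SD of 0.20. The SD was 0.39 for Sptb, 0.59 for Hemgn, 0.81 for Slc4a1, 0.83 for Epor, 0.85 for Tfrc and 1.13 for Klf1. In B6.SLE123 mice the SD of the Alas2 ratio was 0.69.

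**Figure D5:**
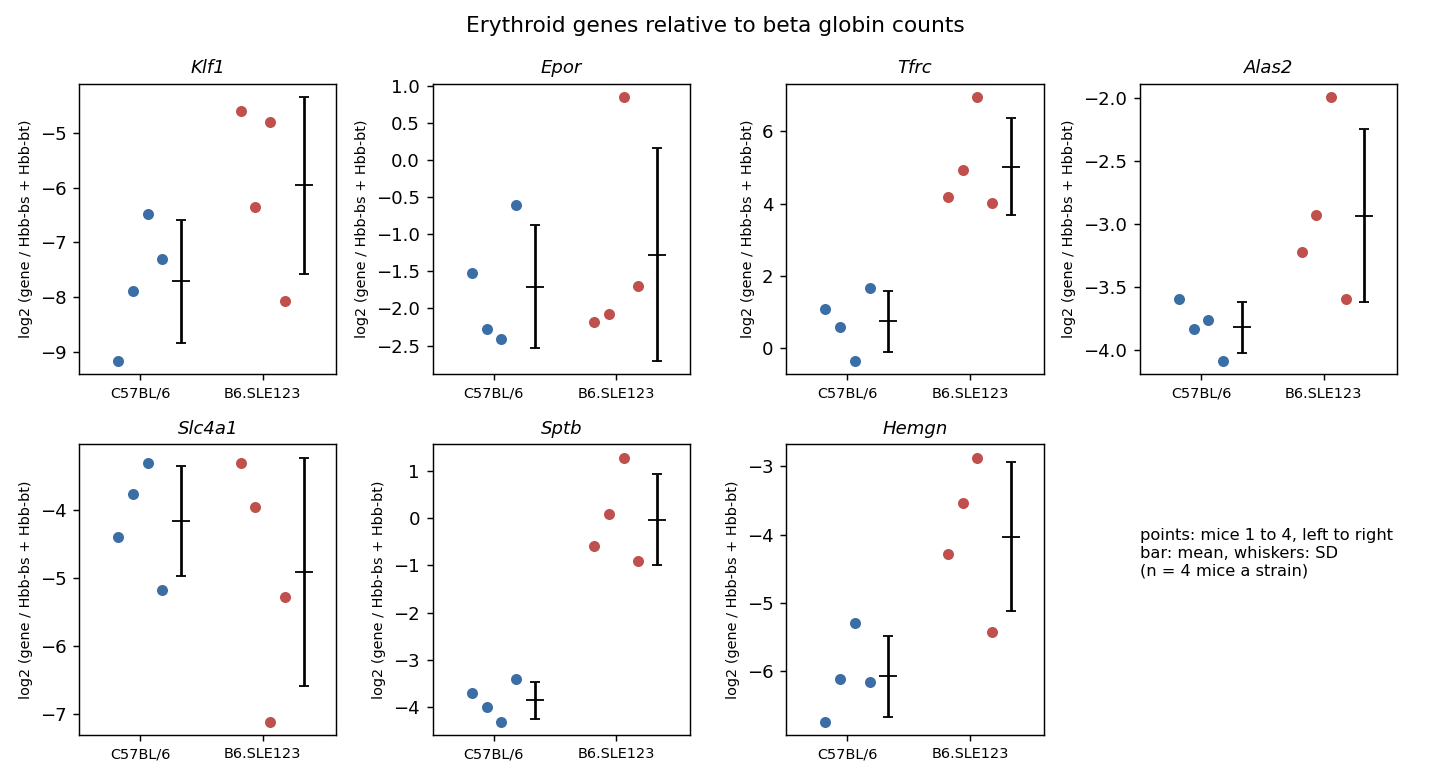
Log2 ratio of each erythroid gene to the summed counts of Hbb-bs and Hbb-bt (y axes, 0.5 counts added, each gene on its own scale) in each C57BL/6 (blue) and B6.SLE123 (red) mouse, with the mean and SD of 4 mice beside the points. Tfrc and Sptb were 4.29 and 3.83 higher in B6.SLE123 mice, and the strains overlapped for Epor, Slc4a1, Klf1 and Hemgn.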

How the data were processed

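RNA of CD11c-positive splenocytes from 8 female mice was sequenced from stranded mRNA libraries. Per the methods, adapters and poor-quality ends were removed with cutadapt, STAR was used for alignment to mm10 and featureCounts for counting per gene. The deposited table holds raw counts per gene and mouse, which were the values used. It also holds the authors' DESeq2 comparison, deposited as a mean normalized signal, a log2 fold change with its standard error, a test score, p-values and a fold change as a ratio, and none of these was used. For 21 genes whose symbol had become a date, the symbol was looked up by identifier.

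Library sizes were TMM-normalized and the strains compared in edgeR 4.0.16 under R 4.3.3 (quasi-likelihood test, strain as the only term, no filter), with Benjamini-Hochberg adjustment over 13786 genes. Log2 CPM used a prior count of 2. The code was tested on simulated data. Depth was 25563070 to 37367094 counts per mouse. Per-mouse ratios (0.5 counts added) were compared by exact two-sided permutation tests in SciPy 1.17.1, whose smallest p is 0.0286. Exon lengths and overlaps came from GENCODE M21. Pairs of mice within a strain differed by more than sampling noise. The text names all members, heme synthesis enzymes, the globins, the 3 genes of highest mean CPM in every other list, and the 3 genes nearest each member, beside genes marked as named after their values were seen. Some genes of the lists were counted but are not reported here by name. The members and lists were chosen with earlier results of these data known.

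Alternatives were relative log expression factors, library sizes without globins, filterByExpr (minimum 10 counts), limma-voom (limma 3.58.1), DESeq2 1.42.0, a replicate block, a more than 2-fold criterion, other reference genes and pseudocounts for the ratios, and each mouse left out.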

Additional observations from a re-analysis of the deposited data

Results flagged for a closer look

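In 127 groups of 4 mice (64 genes in both strains, less Hba-a2 in B6.SLE123 mice, which had no spread, log2 CPM), the highest or lowest mouse stood far from the others in 4, fewer than the 6.3 that chance alone gives at about 1 in 20 groups. Sptb was low in B6.SLE123 mouse 3 (2.34, median of the strain 3.02), the mouse that was also lowest for Alas2, Slc4a1 and Hemgn. Trim10, a ubiquitin ligase of terminal erythropoiesis, was low in the same mouse (-3.39, median -1.75). That value lies near the floor set by the prior count of 2 and rests on very few counts. Slc25a37 was high in C57BL/6 mouse 3 (6.84, median 6.75), and Zfpm1, the cofactor FOG1 of GATA factors, was high in B6.SLE123 mouse 1 (3.51, median 3.16), the mouse with the most Klf1 counts of its strain.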

How the results depend on the processing

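The strain differences of Epor, Tfrc, Alas2 and Slc4a1 kept their direction and their call in all 14 alternative fits each. The number of members called higher was 1 in place of 2 with the replicate block and with the more than 2-fold criterion, in both because Sptb was not called, and between 1 and 2 with a mouse left out. The replicate numbers were not taken as pairs, since the correlations of same-numbered mice were 0.046, 0.173, 0.05 and 0.125 and only mice 2 and 4 correlated best with their own number. With the replicate block the genes called between strains were 7183 in place of 7356, the members called lower stayed 3, and the other erythroid genes called lower were 27. Those erythroid genes numbered 19 in place of 29 after filterByExpr and 19 with the 2-fold criterion, which left 1524 of all genes, and between 16 and 31 with a mouse left out, which also gave between 6496 and 7013 genes in all and 3 to 4 members called lower. The ratio of Alas2 to all globin genes was 0.67 and no longer past the threshold, and that of Hemgn to beta globin was 2.09 and past it with 2 counts added. Left-out mice moved the ratio to beta globin of Epor from -0.28, without B6.SLE123 mouse 3 and reversed, to 0.80, and that of Slc4a1 from -1.29 to -0.014, the latter without B6.SLE123 mouse 3. Among single genes with small differences that were not called, the sign turned for the Zbtb7a log2 fold change (-0.00056 with filterByExpr and between -0.023 and 0.031 with a mouse left out), and likewise for Zfpm1 (between -0.19 and 0.040), Ank1 (between -0.31 and 0.018) and Car2 (between -0.38 and 0.016). The cause was not tested. With 3 mice against 4 no exact test can pass, since its smallest p is 0.0571. Counts of Klf1 and Hemgn were low, which limits the precision of their values.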

Other observations

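Markers of 2 further cell types that share genes with the erythroid lineage were also measured. The counts of calls below stand beside the 26.6% of all genes called lower and the 26.7% called higher. Of 14 genes of megakaryocytes and platelets, 8 were in the table, and 2 of these were called lower and 0 higher. The highest mean CPM was that of Vwf, von Willebrand factor, which endothelium also makes, with a log2 fold change of -0.95 (edgeR adjusted p = 5.79e-06), followed by Itgb3, an integrin chain that macrophages also carry, with -0.29 (adjusted p = 0.0448). Itga2b, the partner of Itgb3 on platelets, had a log2 fold change of 0.22 and was not called (adjusted p = 0.338).

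Of 13 genes of basophils, mast cells and eosinophils, which use GATA factors as well, 7 were in the table, with 3 called lower and 1 higher. Ccr3, a chemokine receptor of eosinophils, fell from 310.8 ± 43.3 CPM to 49.9 ± 16.9 CPM (SD, n = 4, log2 fold change -2.65, adjusted p = 2.20e-06), without overlap. The other 6 genes of the list had no row, and which cells gave the Ccr3 reads was not tested. Il3ra, a chain of the interleukin 3 receptor, fell by 0.40 (adjusted p = 0.000462). Hdc, which makes histamine, had a log2 fold change of 0.37 and was not called (adjusted p = 0.0764). Among 11 genes of stem and early progenitor cells, 7 were in the table, and 4 were called higher and 2 lower. Procr, a receptor of early progenitors that dendritic cells also carry, rose by 0.58 (adjusted p = 7.70e-05), and Cd48 fell by 0.32 (adjusted p = 9.54e-05).

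Other leukocyte markers give the rest of the preparation. Of 10 B cell genes 8 were called lower and 1 higher, and Bank1, a signalling adaptor, fell by 1.24 (adjusted p = 1.17e-06), whereas Cd22 rose by 0.34 (adjusted p = 0.000167) and Ms4a1 had a log2 fold change of -0.09 (adjusted p = 0.322). Of 8 T cell genes, 1 was lower and 1 higher: Lck fell by 0.37 (adjusted p = 0.0159), Tcf7 rose by 0.75 (adjusted p = 1.84e-05) and Cd4 was not called (0.20, adjusted p = 0.117). Of 8 NK cell genes Nkg7 was lower (-0.74, adjusted p = 0.0116), and Gzma (-0.06) and Ncr1 (-0.45) were not called. Of 8 neutrophil genes 2 were lower and 3 higher, with Cxcr2 lower (-0.63, adjusted p = 0.0145) and S100a8 (-0.25) and S100a9 (-0.23) not called. Of 7 plasma cell genes 2 were lower and 2 higher, among them Jchain, the joining chain of immunoglobulins, which rose by 1.10 (adjusted p = 0.001), and Xbp1, which fell by 0.39 (adjusted p = 0.000982), while Irf4 had 0.07 (adjusted p = 0.509). Of the dendritic cell markers, 7 were higher and 3 lower, with H2-Aa at 0.26 (adjusted p = 0.00339), Itgax at 0.22 (adjusted p = 0.00942) and Sirpa at -0.91 (adjusted p = 2.52e-06). Top2a and Pcna of the proliferation list rose by 1.10 and 0.53 (adjusted p = 4.04e-06 and 3.09e-06).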
